A study of Homo sapiens with 24 samples.

Results

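The 7 genes described here encode surface or secreted proteins with which a Hodgkin cell can engage or restrain T cells. They are CD274 (PD-L1) and PDCD1LG2 (PD-L2), CD80 and CD86 (B7-1 and B7-2), CD83, ICOSLG (the ICOS ligand) and LGALS1 (galectin-1). They were chosen by name, and each was read from the transcript cluster (the set of array probes standing for 1 transcript locus) that the platform annotation tied to that symbol alone. These 7 clusters were among 33297 in the table, of which 19460 carried 1 symbol.

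Gene expression was measured on 24 arrays of L1236, a cell line of classical Hodgkin lymphoma, in 2 experiments of 12 arrays that were each compared with their own controls. In the p50/RelA KD (knockdown), siRNA against NFKB1 at 1 µM for 3 days was combined with siRNA against RELA at 500 nM for 2 days. In the p52/RelB KD, siRNA against RELB at 1 µM for 3 days was combined with siRNA against NFKB2 at 500 nM for 2 days. Controls received non-targeting siRNA, all cells took up the siRNA passively in low-serum delivery medium and were harvested 1 day after return to normal serum, and each arm held 6 arrays, from 2 siRNA sequences in each of 3 biological replicates. All arrays thus come from 1 cell line grown without T cells, and whether the 4 samples of a replicate were separate cultures is not given, so p-values measure the spread between these arrays. In bulk RNA, fewer cells carrying a transcript and less of it per cell cannot be told apart.

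T cells need a signal from a costimulatory ligand besides the antigen signal. CD80 and CD86 give it through CD28 and are held in check when CTLA-4 binds them instead, ICOSLG acts through ICOS, and CD83 is a marker of mature dendritic cells and activated B cells that stabilises surface CD86 and MHC class II. PD-L1 and PD-L2 silence T cells through PD-1, and galectin-1 binds glycans on T cells and promotes their death. Hodgkin cells are known for all of these routes: they often carry extra copies of the part of chromosome 9 that holds CD274, PDCD1LG2 and JAK2, and both NF-κB pathways, the canonical one ending in p50/RelA and the non-canonical one ending in p52/RelB, are constantly active in them.

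The siRNAs lowered their targets unequally. In p50/RelA KD, NFKB1 stood at 26.5% of control and RELA at 38.1%. In p52/RelB KD, NFKB2 stood at 39.4% and RELB only at 82.0%, so most RELB mRNA signal remained on the arrays that measured the p52/RelB effects. The paper followed depletion of the subunits as protein, by western blot, which these mRNA values do not measure. Each KD also moved a subunit of the other pathway on the log2 scale, NFKB2 by -0.19 ± 0.040 under p50/RelA siRNA and NFKB1 by 0.15 ± 0.040 under p52/RelB siRNA. The siRNA sequences are shown because results below are given by sequence. The source lists 2 per gene without numbering them, so the first and the second of each pair cannot be matched to the labels' sequence 1 and sequence 2.
NFKB1 siRNA, first listed: ccaaaguauaaagauauua
NFKB1 siRNA, second listed: ggcucauguuuacagcuuu
RELA siRNA, first listed: cuuccaaguuccuauagaa
RELA siRNA, second listed: ggauugaggagaaacguaa
NFKB2 siRNA, first listed: ucauugagcagauagucua
NFKB2 siRNA, second listed: cugucaagaucuguaacua
RELB siRNA, first listed: guaggauucggaaaagauu
RELB siRNA, second listed: uggagaucaucgacgagua

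The DNA just upstream of the start of 4 ligand genes is shown because NF-κB dimers act through κB sites. RefSeq promoter windows (250 bases before to 50 after a start, GRCh38.p14) were given for 5 of the 7 genes, in 7 windows. They were searched on both strands for the κB consensus, for TTCNNNGAA (GAS, the STAT site), for TGANTCA (AP-1) and for the interferon-stimulated element. Capitals mark matches to any of these, and overlapping matches run together.
CD83, chr6:14117622-14117741, plus strand: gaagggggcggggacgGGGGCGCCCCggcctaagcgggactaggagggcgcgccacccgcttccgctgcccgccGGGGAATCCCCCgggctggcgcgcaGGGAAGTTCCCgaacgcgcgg
CD86, chr3:122077634-122077753, plus strand: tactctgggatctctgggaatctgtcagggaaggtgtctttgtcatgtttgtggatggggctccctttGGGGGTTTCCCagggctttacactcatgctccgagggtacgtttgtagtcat
CD80, chr3:119559645-119559764, minus strand: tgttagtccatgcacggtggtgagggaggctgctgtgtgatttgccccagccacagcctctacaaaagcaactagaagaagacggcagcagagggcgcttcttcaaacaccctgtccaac
CD274, chr9:5450322-5450441, plus strand: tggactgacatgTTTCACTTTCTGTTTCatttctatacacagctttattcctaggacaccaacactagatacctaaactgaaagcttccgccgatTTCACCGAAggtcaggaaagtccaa
The stretches run from 150 to 31 bases before the start, for CD274 from 220 to 101. CD83 matched the κB consensus at 3 places and CD86 at 1, each in the second of its 2 windows and none in the first, whereas CD274 held 2 overlapping interferon-element matches and 1 GAS match, and the windows of CD80 and ICOSLG held none of the 4 motifs. Of 27305 promoters in the table, 10.8% held the κB consensus, 7.88% GAS, 7.76% AP-1 and 3.65% the interferon element. A match is a likeness of letters and not a bound site, and none says only that these letters are not in the window.

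All 7 ligand genes passed the filter on low values in both experiments. Among clusters with 1 symbol, the control mean of CD83 ranked at percentile 50.6 in the p50/RelA and 53.2 in the p52/RelB experiment. That of ICOSLG ranked at 32.3 and 36.6, and the other ligand genes ranked from 93.9 to 98.4. Values are log2 after RMA normalization, effects are KD minus control on the log2 scale with the standard error (SE, 6 arrays per arm), and a cluster was called when it changed by 10% or more and limma's Benjamini-Hochberg adjusted p over all clusters tested was below 0.05. Probes differ in brightness, so the ranks above are a description, and the level of 1 gene was not otherwise set against that of another. Levels were not compared between experiments, whose array medians lay at 6.94 to 6.99 and at 7.39 to 7.51. The p52/RelB KD array of sequence 2 in replicate 3 (median 7.51) stood apart, as did the p50/RelA control array of sequence 2 in replicate 2. KD effects and differences of effects were also computed with each of these 2 arrays left out. The sequence tests, permutation p-values and correlations below used all arrays. Among markers of the cell, 0 of 8 for Hodgkin cells lay below the filter limit of 6 in the controls of either experiment, and 1 of 5 B lineage markers did, MS4A1 (CD20). Of 8 T and NK cell markers 6 lay below 6 in the p50/RelA controls and 2 in the p52/RelB controls, and of 7 myeloid and dendritic markers 4 and 3 did. Some markers of other cells thus lay above the limit too, so passing the filter does not by itself show that a gene is expressed.

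**Figure D1:**
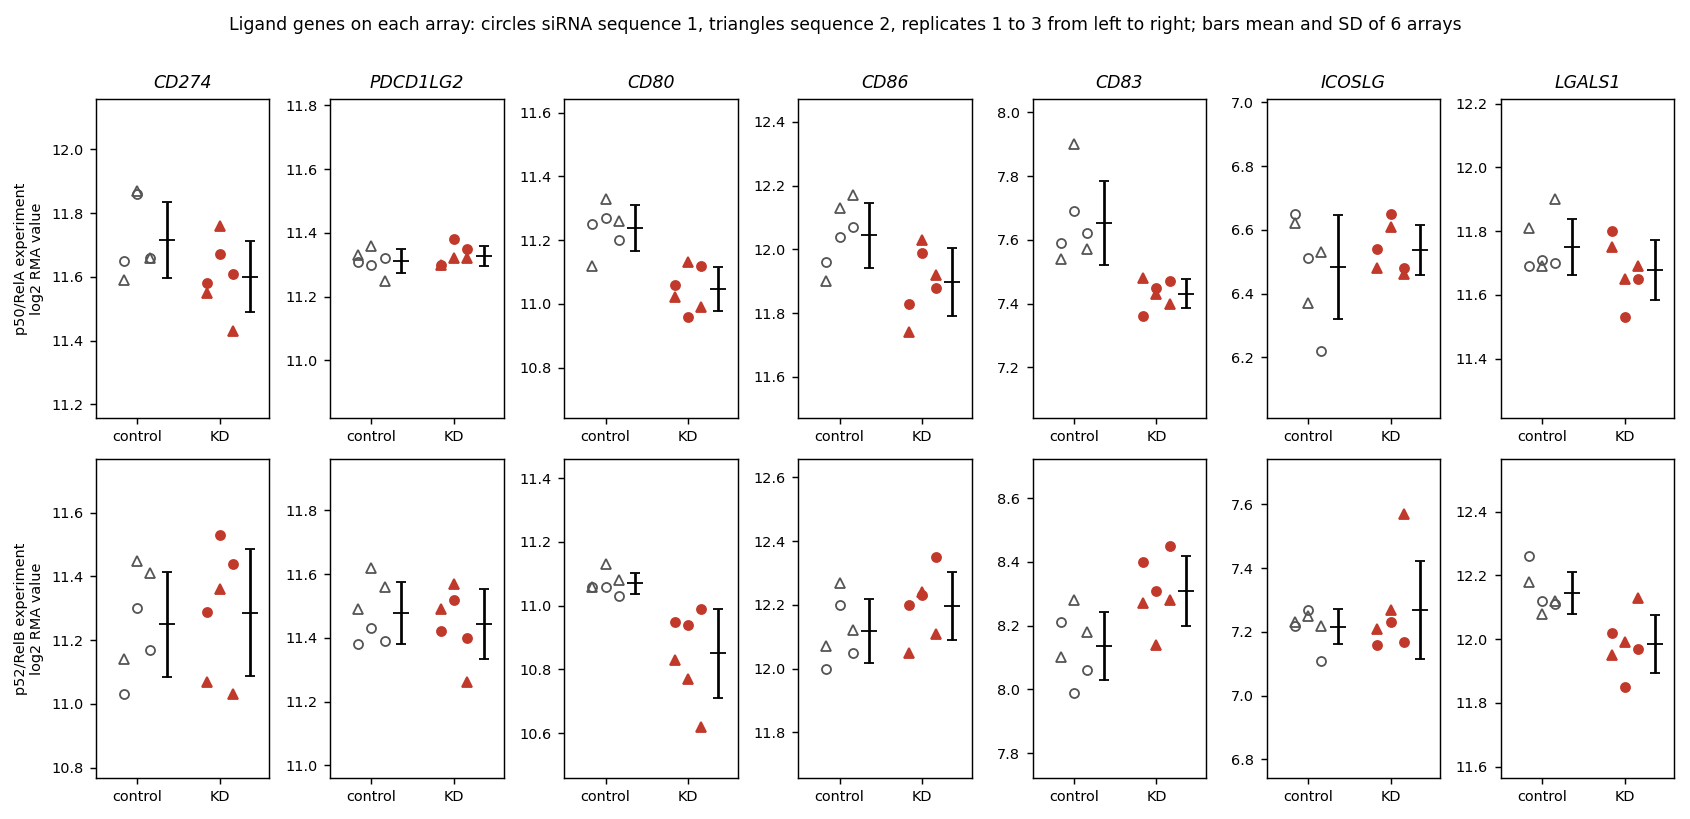
Log2 RMA value (y axis, a span of 1 log2 unit in every panel) of the 7 ligand genes on each array of the p50/RelA experiment (top) and the p52/RelB experiment (bottom), in control (open) and KD (filled) arrays, circles for siRNA sequence 1 and triangles for sequence 2, the bars giving mean and SD over 6 arrays. CD83 in p50/RelA KD and CD80 in p52/RelB KD are the panels in which control and KD arrays do not overlap.

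The first comparison asked how the ligands depend on canonical p50/RelA. Of the 7, 5 had lower means in p50/RelA KD than in control and 4 were lower in every replicate, CD83, CD80, CD86 and CD274, yet 0 passed the test over all clusters. The share of all clusters that were lower in every replicate was not computed. Across the array 1.07% of 14672 clusters were called, 0.825% lower and 0.245% higher. At an unadjusted limma p below 0.05, 4 of the 7 were lower, against 5.67% of all clusters. The median effect of the 7 was -0.11, beside 0.0012 over all clusters, and the plain t-test that the methods name called 0 on the values as deposited and 3 (CD80, CD86 and CD83) on values adjusted for the replicate.

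The second comparison asked the same of non-canonical p52/RelB. CD80 and LGALS1 fell, 0 rose and 5 did not pass, where 9.68% of 16101 clusters were called, 5.75% lower and 3.93% higher. At an unadjusted limma p below 0.05, 2 of the 7 were lower and 1 higher, against 11.7% and 11.1% of all clusters. The median effect of the 7 was 0.036, beside 0.019 over all clusters, and 3 of the 7 means were below control. CD83, which had the lowest effect of the 7 in p50/RelA KD, had the highest here. The effect of CD83 and that of CD86 differed between the KDs, 2 of 7 where 4.35% of 14647 clusters did so and 1.9% in this direction, more positive in p52/RelB KD.

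**Figure D2:**
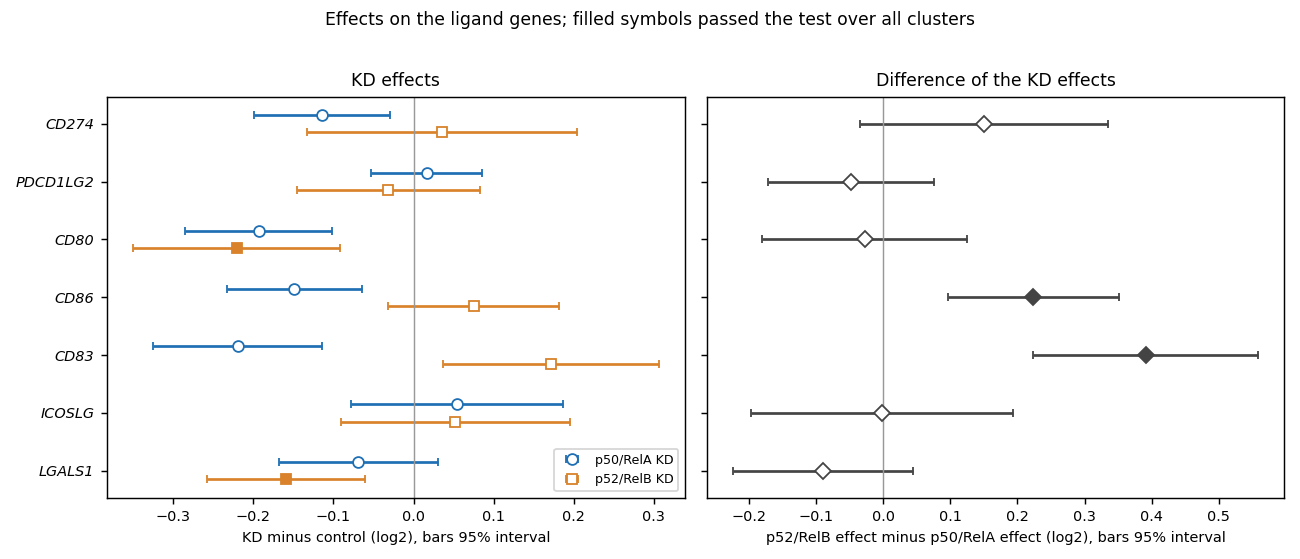
Left, KD minus control (log2, x axis) for the 7 ligand genes in p50/RelA KD (circles) and p52/RelB KD (squares), with 95% intervals; right, the p52/RelB effect minus the p50/RelA effect (diamonds) with its 95% interval; filled symbols passed the test over all clusters. CD80 and LGALS1 are filled on the left, both lower in p52/RelB KD, and CD83 and CD86 are filled on the right.

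CD80 had lower means in every replicate of both KDs. In the p50/RelA experiment its lowest, median and highest values (transcript cluster 8089771) were 11.12, 11.25 and 11.33 in control and 10.96, 11.04 and 11.13 in KD. The arms met only at the lowest control and the highest KD array. Its effect was -0.19 ± 0.043, with -0.15, -0.25 and -0.18 in replicates 1, 2 and 3, and the limma adjusted p of 0.0511 lay just over the threshold. An exact two-sided permutation of the arms within replicates gave p = 0.00926, the smallest that this design allows. Permutation p-values here and below are not adjusted for the number of clusters. How many of all clusters reach this smallest value was not computed.

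CD80 fell in p52/RelB KD. The control arrays lay at 11.03, 11.06 and 11.13 (lowest, median and highest) and the KD arrays at 10.62, 10.88 and 10.99. No KD array reached a control array, which held for 5.27% of all clusters in that experiment. The effect was -0.22 ± 0.059, to 85.8% of control, with -0.17, -0.24 and -0.25 in the 3 replicates (limma adjusted p = 0.0339; exact permutation p = 0.00926). With 1 array left out in turn CD80 was called in 4 of 12 fits and not in 8, which left out any of the 6 controls or the KD arrays of sequence 2 in replicates 1 and 2 (adjusted p from 0.0630 to 0.0897), while its effect stayed between -0.26 and -0.17. With the sequence 2 KD array of replicate 3 omitted the effect was -0.17 and still called, and with a whole replicate left out it was called only without replicate 3.

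The CD80 effects of the 2 KDs differed by -0.028 ± 0.073 (p52/RelB minus p50/RelA), with a 95% interval of -0.18 to 0.13 and a limma adjusted p of 0.906. The interval holds differences nearly as large as either effect, so these data do not show that the KDs act alike on CD80.

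CD86, the other ligand of CD28 and CTLA-4, had estimated effects of opposite sign in the 2 KDs, of which neither passed. In the p50/RelA experiment its values (transcript cluster 8082035) were 11.90, 12.06 and 12.17 in control and 11.74, 11.90 and 12.03 in KD, lowest, median and highest. The arms overlapped, but within every replicate the KD mean was lower, by -0.15, -0.075 and -0.23 in replicates 1, 2 and 3. The effect was -0.15 ± 0.039 (limma adjusted p = 0.102; exact permutation p = 0.00926).

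Under p52/RelB siRNA and its control, CD86 lay at 12.005, 12.09 and 12.27 in control and at 12.05, 12.21 and 12.35 in KD, again with overlapping arms. The effect was 0.075 ± 0.049 and did not pass (limma adjusted p = 0.400), with 0.083, -0.002 and 0.14 in the 3 replicates, and it was 0.037 when the sequence 1 KD array of replicate 3 was omitted. The difference of the 2 effects did pass, at 0.22 ± 0.061 with a 95% interval of 0.096 to 0.35 (limma adjusted p = 0.0386). With 1 of the 24 arrays left out in turn CD86 was called in 10 fits and not in 14, with adjusted p up to 0.0860 and a difference between 0.19 and 0.24, and leaving out any whole replicate ended the call (limma adjusted p from 0.0844 to 0.285).

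CD83, the marker of mature dendritic cells, gave the clearest contrast between the KDs. Its control means ranked only at percentiles 50.6 and 53.2, and passing the filter does not by itself show that it is expressed. In the p50/RelA experiment its values (transcript cluster 8116983) were 7.54, 7.60 and 7.90 in control and 7.36, 7.44 and 7.48 in KD, lowest, median and highest. All KD arrays lay under all control arrays, which was so for 1.11% of all clusters there. The effect was -0.22 ± 0.049, to 85.9% of control, with -0.15, -0.35 and -0.16 in the 3 replicates (limma adjusted p = 0.0526; exact permutation p = 0.00926). The highest control value belonged to the array of sequence 2 in replicate 2 named above. Without it the effect was -0.18 and passed, with an adjusted p of 0.0417, and over the 12 fits with 1 array left out the adjusted p ran from 0.0417 to 0.140.

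For p52/RelB, CD83 lay at 7.99, 8.14 and 8.28 in control and at 8.14, 8.29 and 8.45 in KD. The KD mean was higher in every replicate, by 0.18, 0.083 and 0.25, though the arms overlapped. The effect of 0.17 ± 0.062 did not pass (limma adjusted p = 0.111; exact permutation p = 0.0370). When the highest control array, sequence 2 of replicate 2, was left out it was 0.22 with an adjusted p of 0.0318, and over all 12 fits with 1 array left out the adjusted p reached 0.251.

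The difference of the 2 CD83 effects was 0.39 ± 0.081, with a 95% interval of 0.22 to 0.56 and a limma adjusted p of 0.00623. CD83 was called in each of the 24 fits that left out 1 array, with a difference between 0.35 and 0.44 and an adjusted p of at most 0.0154. With a whole replicate left out, limma called it without replicate 2, and not without replicate 1 (limma adjusted p = 0.0914) or replicate 3 (limma adjusted p = 0.0607), at differences of 0.37, 0.42 and 0.38.

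CD274, the gene of PD-L1, was read from transcript cluster 8154233. In the p50/RelA experiment it lay at 11.59, 11.66 and 11.87 in control and at 11.43, 11.60 and 11.76 in KD, with overlapping arms. The KD mean was lower in every replicate, by -0.052, -0.15 and -0.14, for an effect of -0.11 ± 0.039 that did not pass (limma adjusted p = 0.256; exact permutation p = 0.00926). In the p52/RelB experiment the control arrays lay at 11.03, 11.24 and 11.45 and the KD arrays at 11.03, 11.33 and 11.53, almost the same range. The effect was 0.036 ± 0.077 (limma adjusted p = 0.820), with 0.096, 0.071 and -0.060 in the replicates. The 2 effects differed by 0.15 ± 0.089 (95% interval -0.034 to 0.34; limma adjusted p = 0.433).

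PDCD1LG2, the gene of PD-L2 and a neighbour of CD274 in the genome, moved least in p50/RelA KD. Its values there (transcript cluster 8154245) were 11.25, 11.32 and 11.36 in control and 11.30, 11.32 and 11.38 in KD. The effect was 0.016 ± 0.032, and its 95% interval of -0.053 to 0.086 holds no change of 10% (limma adjusted p = 0.934). For p52/RelB, PDCD1LG2 lay at 11.38, 11.46 and 11.62 in control and at 11.26, 11.46 and 11.57 in KD, and the effect was -0.031 ± 0.052 (95% interval -0.15 to 0.083; limma adjusted p = 0.759). Its lowest value came from the KD array of sequence 2 in replicate 3.

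ICOSLG, the ligand of ICOS, had the widest spread of the 7 between p50/RelA controls. Its values there (transcript cluster 8070720) were 6.22, 6.52 and 6.65 in control and 6.46, 6.51 and 6.65 in KD. The replicates disagreed in sign, at -0.13, 0.19 and 0.098, and the effect was 0.054 ± 0.061 (limma adjusted p = 0.865). In the p52/RelB experiment control arrays lay at 7.11, 7.23 and 7.27 and KD arrays at 7.16, 7.22 and 7.57. The effect was 0.052 ± 0.066 (limma adjusted p = 0.677). The highest KD value was that of the array of sequence 2 in replicate 3, and without that array the effect was -0.017.

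LGALS1, the gene of galectin-1 and the one secreted protein among the 7, fell in p52/RelB KD. The control arrays (transcript cluster 8072876) lay at 12.08, 12.12 and 12.26 and the KD arrays at 11.85, 11.98 and 12.13. The arms overlapped through 1 KD array, that of sequence 2 in replicate 3. The effect was -0.16 ± 0.045, to 89.6% of control, with -0.23, -0.18 and -0.062 in the replicates (limma adjusted p = 0.0448; exact permutation p = 0.0278). Without that array it was -0.19 with an adjusted p of 0.00208, whereas leaving out any 1 of the other 11 arrays ended the call, with adjusted p from 0.0588 to 0.113.

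In the p50/RelA experiment LGALS1 lay at 11.69, 11.71 and 11.90 in control and at 11.53, 11.67 and 11.80 in KD. The effect was -0.069 ± 0.046 (limma adjusted p = 0.699), with 0.025, -0.11 and -0.13 in the replicates, and it was -0.037 when the sequence 2 control array of replicate 3 was omitted. The 2 LGALS1 effects differed by -0.090 ± 0.064 (95% interval -0.22 to 0.044; limma adjusted p = 0.542), so a larger fall in p52/RelB KD was not shown.

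The 2 siRNA sequences were then set apart. In p50/RelA KD the effects of sequence 1 and sequence 2, each against the mean of both controls in its replicate, were close: -0.19 and -0.19 for CD80, -0.15 and -0.15 for CD86, -0.224 and -0.215 for CD83, and -0.094 and -0.14 for CD274. Of the 7 genes 0 passed limma's test of sequence 2 against sequence 1 in p50/RelA KD, where 0% of 14672 clusters did, and 0 of 7 had an unadjusted p below 0.05. The p50/RelA control sequences gave the same counts, 0% of clusters and 0 of 7 at either threshold.

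The p52/RelB sequences were further apart. CD274 was at 0.17 with sequence 1, with 0.21, 0.15 and 0.15 in the replicates, and at -0.098 with sequence 2, with -0.016, -0.012 and -0.27. CD80 was at -0.11 with sequence 1 and at -0.33 with sequence 2, below control in all 6 arrays. The order of the 4 treatments for CD80 was KD sequence 2 (mean 10.74), KD sequence 1 (10.96), control sequence 1 (11.05) and control sequence 2 (11.09), and the control sequences did not differ beyond their spread.

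By limma, sequence 2 lay below sequence 1 in p52/RelB KD by 0.27 ± 0.065 for CD274 and by 0.22 ± 0.060 for CD80, with adjusted p = 0.506 for both. Of the 7 genes 0 passed, as did 0% of 16101 clusters, but 2 of the 7 and 9.54% of all clusters had an unadjusted p below 0.05. CD274 was lower with sequence 2 in each replicate, by -0.22, -0.17 and -0.41, and so was CD80, by -0.12, -0.16 and -0.37, the last of each resting on the array that stood apart. Between the p52/RelB control sequences, where 0% of clusters and 0 of the 7 genes passed, sequence 2 minus sequence 1 was 0.17 ± 0.065 for CD274 and 0.16 ± 0.064 for PDCD1LG2 (limma adjusted p = 1.00 for both). These 2 of the 7 had an unadjusted p below 0.05, as did 0.994% of all clusters.

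CD83 had effects above 0 with both p52/RelB sequences, at 0.25 and 0.092, and CD86 was at 0.14 and 0.013. LGALS1 was at -0.20 and -0.12, with 0.017 on the sequence 2 array of replicate 3, and ICOSLG at -0.028 and 0.13. With sequence 1 and sequence 2 NFKB2 itself was at -1.37 and -1.32, and RELB at -0.33 and -0.25. Neither passed limma's test of sequence 2 against sequence 1, as 0% of clusters did. The part of target depletion in the sequence differences was not tested. With the KD arrays of sequence 1 alone LGALS1 and CD83 were called in p52/RelB KD and CD80 was not, and with those of sequence 2 alone CD80 was called and LGALS1 was not.

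**Figure D3:**
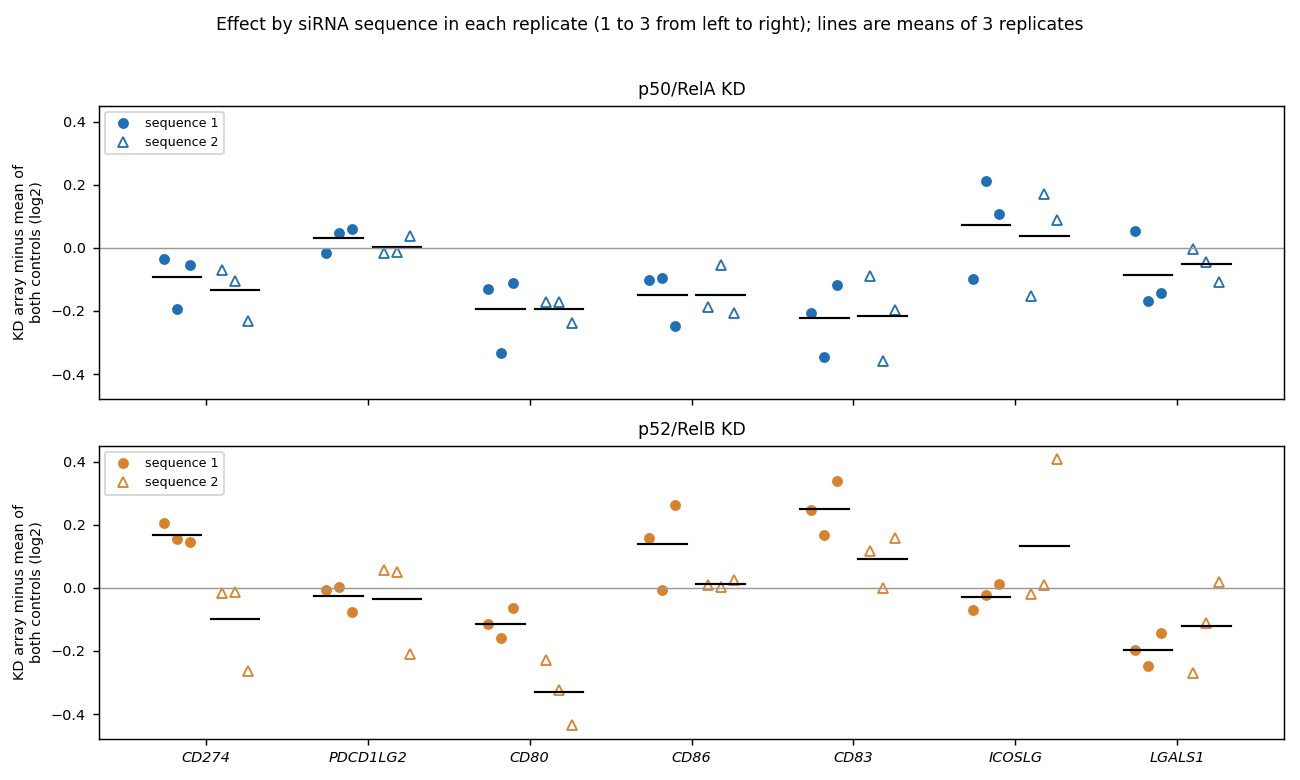
KD array minus the mean of both control arrays of its replicate (log2, y axis) for the 7 ligand genes, by siRNA sequence, in p50/RelA KD (top) and p52/RelB KD (bottom); points are replicates 1 to 3 from left to right and lines are their means. In p52/RelB KD the lines of the 2 sequences lie apart for CD274 (0.17 and -0.098) and CD80 (-0.11 and -0.33), while in p50/RelA KD those of CD80, CD86 and CD83 nearly coincide.

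Other genes of the same routes were examined in groups. Their counts stand beside these shares of all clusters. In p50/RelA KD 0.825% were called lower and 0.245% higher, and in p52/RelB KD 5.75% and 3.93%. At an unadjusted limma p below 0.05, in either direction, the shares were 10.5% in p50/RelA KD and 22.8% in p52/RelB KD. Of 12 further members of the B7 and butyrophilin family 9 were tested in each experiment and 0 were called, with medians of 0.0097 in p50/RelA KD and -0.017 in p52/RelB KD. BTN2A2, a butyrophilin that restrains T cells, had the lowest effect among them in p50/RelA KD, at -0.17 ± 0.052 (limma adjusted p = 0.166). At an unadjusted limma p below 0.05 BTN2A2 alone of the 9 was so in p50/RelA KD and 0 of the 9 in p52/RelB KD. Of other checkpoint ligands 6 and 7 were tested and 0 were called, 1 and 2 of them having an unadjusted limma p below 0.05, with LGALS9, the galectin that binds TIM-3, at -0.28 ± 0.062 in p50/RelA KD (limma adjusted p = 0.0526). The receptors of the ligands, which T cells carry, mostly lay below the filter: 2 of 10 measured were tested in p50/RelA KD and 4 in p52/RelB KD, and 0 were called, nor were any at an unadjusted limma p below 0.05.

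The costimulatory pairs of the TNF family held called genes in both KDs. An unadjusted limma p below 0.05, in either direction, was reached by 4 of 9 tested in p50/RelA KD and by 6 of 10 in p52/RelB KD. In p50/RelA KD 2 of 9 tested fell, TNFRSF9 (4-1BB) by 0.56 ± 0.039 and CD40, the receptor of the T cell ligand CD40L, by 0.19 ± 0.037. Under p52/RelB siRNA 3 of 10 fell, CD40 by 0.29 ± 0.041, TNFSF9 (the 4-1BB ligand) by 0.19 ± 0.040 and TNFRSF14 (HVEM, the ligand of BTLA) by 0.18 ± 0.050, and CD27 rose by 0.42 ± 0.050. CD40 was thus called lower in both, and its effects did not differ past the threshold (limma adjusted p = 0.386), while those of TNFRSF9 (adjusted p = 6.74e-05) and CD27 (adjusted p = 0.00197) did. TNFRSF14 was also lower in p50/RelA KD, at -0.23 ± 0.050, just over the threshold (limma adjusted p = 0.0505). Its effects did not differ past the threshold (limma adjusted p = 0.806), nor did those of TNFSF9 (limma adjusted p = 0.148).

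Of adhesion and SLAM genes 1 of 7 tested fell in p50/RelA KD, ICAM1, the ligand of LFA-1, by 0.29 ± 0.032, and 1 of 8 fell in p52/RelB KD, SLAMF1 by 0.21 ± 0.044. An unadjusted limma p below 0.05 was reached by 2 of the 7 and by 1 of the 8. Of 12 tested regulators of the ligands, IRF1, which drives CD274 under interferon, fell by 0.35 ± 0.066 and JUN by 0.27 ± 0.052 in p50/RelA KD. The kinases JAK1 and JAK2, which lie upstream of STAT factors, rose in p52/RelB KD, JAK1 by 0.19 ± 0.039 and JAK2 by 0.20 ± 0.058, and 0 of the 12 fell. Among these 12 regulators 6 had an unadjusted limma p below 0.05 in p50/RelA KD and 3 in p52/RelB KD. JAK2 lies in the same part of chromosome 9 as CD274. Of 4 other tested genes near CD274, 0 were called in p50/RelA KD and 1 fell in p52/RelB KD, RIC1 by 0.22 ± 0.058. An unadjusted limma p below 0.05 was reached by 0 of the 4 in p50/RelA KD and by 3 in p52/RelB KD (ERMP1, RCL1 and RIC1). The shares of all clusters were 10.5% and 22.8%. The effects of the 2 KDs differed past the threshold for ICAM1 (limma adjusted p = 0.00541) and IRF1 (limma adjusted p = 0.0358). For SLAMF1, JUN, JAK1, JAK2 and RIC1 they did not (limma adjusted p from 0.0650 to 0.593).

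**Figure D4:**
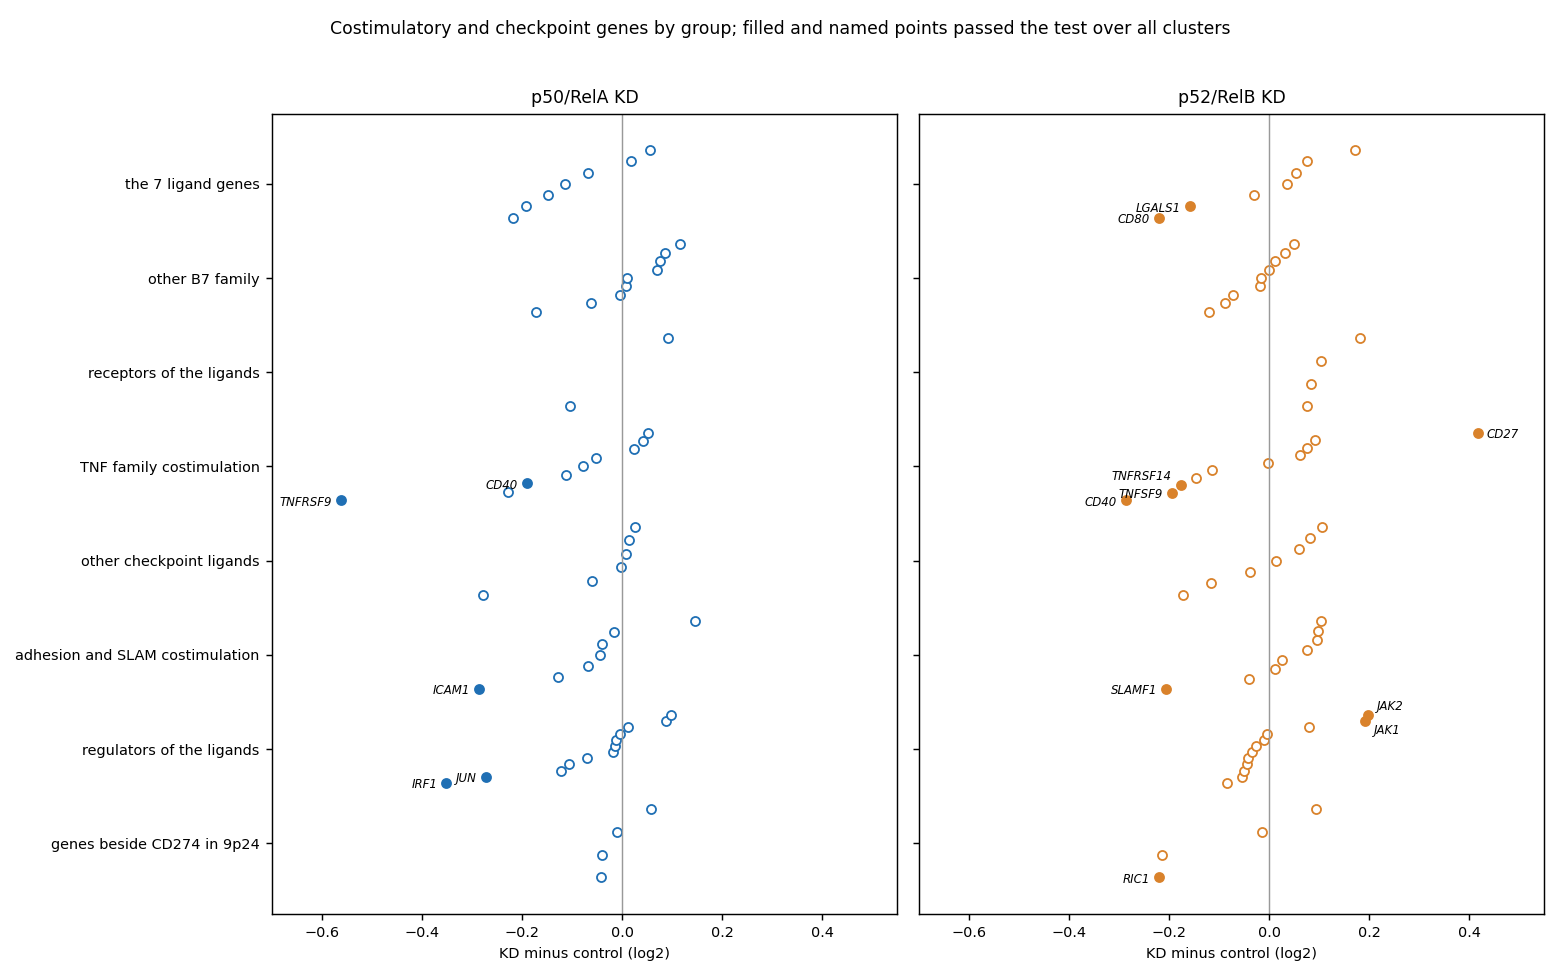
KD minus control (log2, x axis) of every tested gene of the 7 ligands and 7 related groups (rows) in p50/RelA KD (left) and p52/RelB KD (right); filled and named points passed the test over all clusters. TNFRSF9 at -0.56 lies furthest to the left in p50/RelA KD and CD27 at 0.42 furthest to the right in p52/RelB KD.

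Markers of other cells were examined beside the ligands. Of the myeloid and dendritic markers, which share CD86 and CD83 expression, 2 and 4 were tested and 0 were called (0 and 1 at an unadjusted limma p below 0.05). Their summed level, as a mean over the list, ran from 5.77 to 5.90 in p50/RelA controls and from 5.83 to 5.93 in its KD, and from 6.20 to 6.32 and 6.19 to 6.47 for p52/RelB. The 7 markers averaged between 3.98 (LYZ) and 7.78 (CSF1R) in the p50/RelA controls and between 4.67 (LYZ) and 7.61 (CSF1R) in the p52/RelB controls. T and NK cell markers were tested in 2 and 6 cases with 0 called and 0 at an unadjusted limma p below 0.05. Of the 8 Hodgkin cell markers 3 fell in p50/RelA KD (CCL22, CCL17 and EBI3) and 3 in p52/RelB KD (CCL22, EBI3 and TRAF1), and 0 rose. An unadjusted limma p below 0.05 was reached by 5 of the 8 in p50/RelA KD and by 7 in p52/RelB KD. The shares of all clusters were 10.5% and 22.8%. Of 4 tested B lineage markers the factor PAX5 rose by 0.19 ± 0.038 in p52/RelB KD and 0 were called in p50/RelA KD. Their counts at an unadjusted limma p below 0.05 were 0 in p50/RelA KD and 1 in p52/RelB KD. Of 4 tested stromal clusters PECAM1, which B lineage cells can also carry, rose by 0.19 ± 0.036 in p52/RelB KD (transcript cluster 8017599) and 0 were called in p50/RelA KD. In each KD 1 of the 4 stromal clusters had an unadjusted limma p below 0.05. Another PECAM1 cluster, 8017619, had an effect of -0.0035 ± 0.11 in p50/RelA KD. It was not tested in p52/RelB KD, where its mean was 5.91 in control and 5.58 in KD. The part of all these markers in the ligand results was not tested.

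For each ligand gene, the genes with the most similar pattern were sought by Pearson's r over the 24 arrays, after subtracting the mean of the 4 arrays of each replicate, among 14647 clusters. These arrays share controls, replicates and the KD effects themselves, so r is a description. CD274 was most like CMTM6 (r = 0.858), which encodes a protein that keeps PD-L1 at the cell surface, then TINF2 (0.821) and SGPL1 (0.819). CMTM6 had an effect of -0.11 in p50/RelA KD and -0.010 in p52/RelB KD, beside -0.11 and 0.036 for CD274. CD80 was most like LBR (0.930), WARS1 (0.910) and RAPGEF6 (0.907), and LBR had effects of -0.18 and -0.25.

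CD83 was most like the immediate early factor EGR1 (r = 0.885), which had effects of -0.24 in p50/RelA KD and 0.27 in p52/RelB KD, followed by SNX11 (0.832) and RWDD1 (0.830). SNX11 was also the gene most like CD86 (0.835), before TBXT (0.826) and DPH2 (0.809). PDCD1LG2 was most like PHACTR2 (0.773), DCAF16 (0.769) and SNORD32B (0.764). ICOSLG was most like MIR188 (0.928), HOXB-AS3 (0.920) and TEKTL1 (0.915), and LGALS1 like SLC5A11 (0.880), SLC12A9 (0.861) and CYBC1 (0.825). Among the 7 themselves r was highest between CD86 and CD83 (0.679) and between CD274 and CD86 (0.644), and lowest between CD274 and ICOSLG (-0.511). On the p52/RelB KD array of sequence 2 in replicate 3, ICOSLG was at 0.41 and CD274 at -0.27 against the replicate's control mean. CD274 and its neighbour PDCD1LG2 had r = 0.417.

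**Figure D5:**
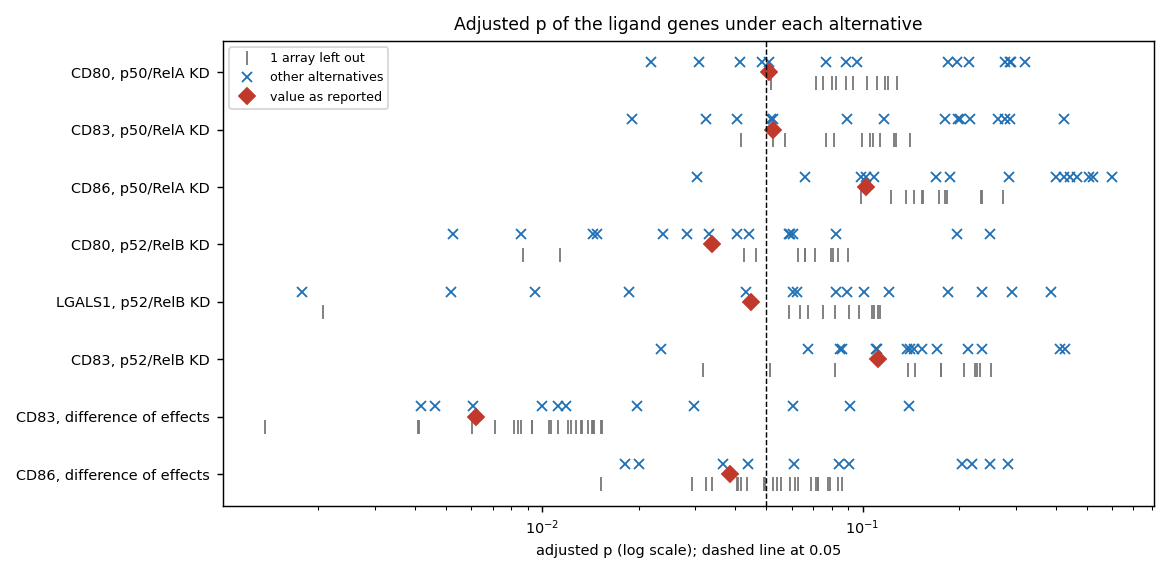
Adjusted p (x axis, log scale, dashed line at 0.05) of 8 ligand results as reported (diamonds), with 1 array left out in turn (ticks) and under the other alternatives (crosses). For CD83 all 24 ticks of the difference of effects lie left of the line, at 0.0154 or below, whereas the ticks of CD80 and LGALS1 in p52/RelB KD lie on both sides.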

How the data were processed

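The log2 values were deposited by the authors after robust multi-array averaging (background correction, quantile normalization and probe summarization, Bioconductor oligo) of human gene arrays. Neither the oligo version nor the covariates that the methods say were adjusted are given in the sources used here. The 24 arrays were grouped by their labels into KD and control arms of 6 per experiment. Of 33297 transcript clusters, 19460 carried 1 gene symbol, 1754 several and 12083 were not named here, and of the single symbols 19429 were updated through RefSeq and 31 kept. The genes and gene groups were chosen with earlier results of these data known.

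Clusters below 6 in 50% or more of the 12 arrays of an experiment were left out. KD was compared with control in limma 3.58.1 (R 4.3.3) within each experiment, with the biological replicate as a block. Samples of a replicate deviated together (correlations 0.448, 0.195 and 0.251, and 0.574, 0.268 and 0.377, all above 0.1), and the methods describe them as replicates. The difference of the 2 effects was fitted over both experiments, and siRNA sequences were compared within each arm. Calls needed an adjusted p below 0.05 and a change of 10% or more. All 7 ligand genes, all called members of the gene groups and the 3 most similar genes of each ligand were named; BTN2A2, LGALS9, LYZ, CSF1R and MS4A1 were named after their values were seen. The fits were tested on simulated data in which all planted changes were larger than any ligand effect reported here. Recovery of changes as small as those of the ligands was not tested. Tables and motif counts used Python 3.11.15, pandas 2.3.3 and NumPy 2.4.6, and figures matplotlib 3.10.9. The alternatives changed the block, filter, clusters tested, normalization, array weights, sequences, scan batch and test, or left out arrays and replicates. The authors' own comparison tables were not used. The number of arrays limits the precision.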

Additional observations from a re-analysis of the deposited data

Results flagged for a closer look

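The KD effects on CD83 and CD86 differed between the experiments by a test of the difference itself. For CD83 the p52/RelB effect exceeded the p50/RelA effect by 0.39, and for CD86 by 0.22, both on the log2 scale. ICOSLG had an array far from the other 5 in both arms of the p52/RelB experiment: the lowest control array, sequence 1 of replicate 3, at 7.11, and the highest KD array, sequence 2 of replicate 3, at 7.57. Of 28 sets of 6 arrays examined for such a gap these were 2, and chance gives about 1 in 20.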

How the results depend on the processing

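In p50/RelA KD, 0 ligand genes were called as reported and without the replicate block. There was 1 (CD80) when clusters with several symbols were also tested, an alternative chosen after seeing the data, 2 (CD80 and CD83) with further quantile normalization or array weights, and 3 with the methods' t-test on replicate-adjusted values. Leaving out arrays or replicates gave 0 to 1. In p52/RelB KD, 2 were called as reported, 1 (CD80) with no replicate block, no filter, further quantile normalization, sequence 2 alone or the scan batch as block, and 0 with all clusters tested, sequences averaged or the methods' t-test on deposited values, and leaving out arrays or replicates gave 0 to 2. Genes whose effects differed between the KDs numbered 2 as reported, 1 (CD83) with no replicate block, no filter or all clusters tested, 0 with sequence 2 alone, and 0 to 2 with arrays or replicates left out. CD83 was called different in 32 of 35 alternatives: 24 of 24 with 1 array left out, 1 of 3 with a replicate left out and 7 of 8 others. CD86 was called in 14 of 35: 10 of 24, 0 of 3 and 4 of 8. For the difference of effects, no fit averaged the sequences within each replicate. The fall of CD80 in p52/RelB KD was called in 13 of 27 (adjusted p from 0.00528 to 0.250) and that of LGALS1 in 6 of 27 (0.00178 to 0.386), with no change of sign. The sign turned for small effects, in p52/RelB KD for CD274 with sequence 2 alone (-0.098) and ICOSLG with sequence 1 alone (-0.028) or array weights (-0.015), and in the difference of effects for CD80 with sequence 1 alone (0.080) and ICOSLG with sequence 2 alone (0.096). With arrays or replicates left out, ICOSLG in p50/RelA KD ran from -0.014 to 0.14. Likewise in p52/RelB KD, CD274 ran from -0.0038 to 0.099, PDCD1LG2 from -0.062 to 0.024 and ICOSLG from -0.026 to 0.10. The differences of effects ran from -0.092 to 0.024 for PDCD1LG2, -0.070 to 0.022 for CD80 and -0.071 to 0.096 for ICOSLG. The cause was not tested.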
